A study of Homo sapiens with 6 samples.

Results

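The genes described here are ABCA1, ABCG1, the 2 liver X receptor genes NR1H3 (LXR-alpha) and NR1H2 (LXR-beta), and the established LXR targets MYLIP, LPCAT3 and APOE. They were found by gene name in the deposited count table, where they make up 7 of 58733 named entries. Polyadenylated RNA was sequenced from MDA-MB-231 cells, an established and highly invasive line of human breast cancer that lacks estrogen and progesterone receptors, grown in medium with serum. One group of 3 libraries (DMSO a, b and c) came from cells kept for 72 h in the vehicle DMSO. The other 3 libraries (Azeliragon a, b and c) came from the same line kept for 72 h with 2 µM Azeliragon, an orally active small molecule that blocks RAGE, a cell surface receptor for glycated proteins and other danger signals. All libraries share 1 cell line, 1 dose and 1 time point.

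LXR-alpha and LXR-beta are nuclear receptors that are switched on by oxysterols, oxidised forms of cholesterol, and that bind DNA as partners of the retinoid X receptors. When a cell holds excess cholesterol they induce genes that remove it. The best known are ABCA1, which loads cholesterol and phospholipid onto lipid-poor apolipoproteins, and ABCG1, which passes cholesterol to larger particles. LXR also induces MYLIP, which marks lipoprotein receptors for degradation, LPCAT3, which places polyunsaturated chains in phospholipids, SREBF1, a driver of fatty acid synthesis, and in macrophages APOE.

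The libraries held 41455979 to 44313584 counts. Levels are given as CPM, the usual scaling of counts to the library total, after TMM correction for differences in RNA composition, with the SD over libraries. The conditions were compared with edgeR's quasi-likelihood test, with Benjamini-Hochberg adjustment over 16081 genes, and "rose" or "fell" is used only at an adjusted p under 0.05. Whether the 3 libraries of a group are separate cultures is not stated in the labels, so the p-values reflect library-to-library spread that may be purely technical. On the first principal component, which held 37.6% of the variance, DMSO a lay at -0.23, DMSO b and c at 30.1 and 33.7, and the Azeliragon libraries at -23.0 to -19.0. DMSO a thus stood between the other DMSO libraries and the treated ones, and where a gene given with its values as not called was called without DMSO a, that value stands beside it. The line's markers VIM, CD44, EGFR, KRT18, AXL and CAV1 passed the filter on low counts, whereas ESR1, PGR and CDH1, which this line lacks, did not. EPCAM, also taken as low in the line, was at 8.97 CPM in DMSO. EGFR and AXL rose with Azeliragon, with edgeR adjusted p-values of 0.0174 and 0.0297. Both calls were lost without DMSO b or any 1 of the Azeliragon libraries, and that of AXL also without DMSO c. Without DMSO a, VIM, KRT18 and CAV1 were called as lower.

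Of the 7 genes, 6 had enough reads to be tested, and ABCG1 had none at all. ABCA1 and NR1H3 fell with Azeliragon, and no gene of the set rose. That is 2 of 6 tested genes, where edgeR's test called 6.27% of all tested genes, 3.53% as lower and 2.75% as higher. For the 0 genes that rose, the count was also 0 at an unadjusted p under 0.05 and with DESeq2 and limma-voom, and 4 genes had lower levels at that unadjusted p. The groups did not overlap for 4 of the 6 (ABCA1, NR1H3, MYLIP and LPCAT3), against 25.3% of all tested genes. All 6 estimates were below 0, with a median log2 fold change of -0.36, whereas the median over all tested genes was -0.0040. The set was chosen with earlier results of these data known, so these comparisons with all tested genes are a description. As RNA of whole cultures was measured, a lower level in every cell and a loss of the cells with the highest level cannot be told apart.

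**Figure D1:**
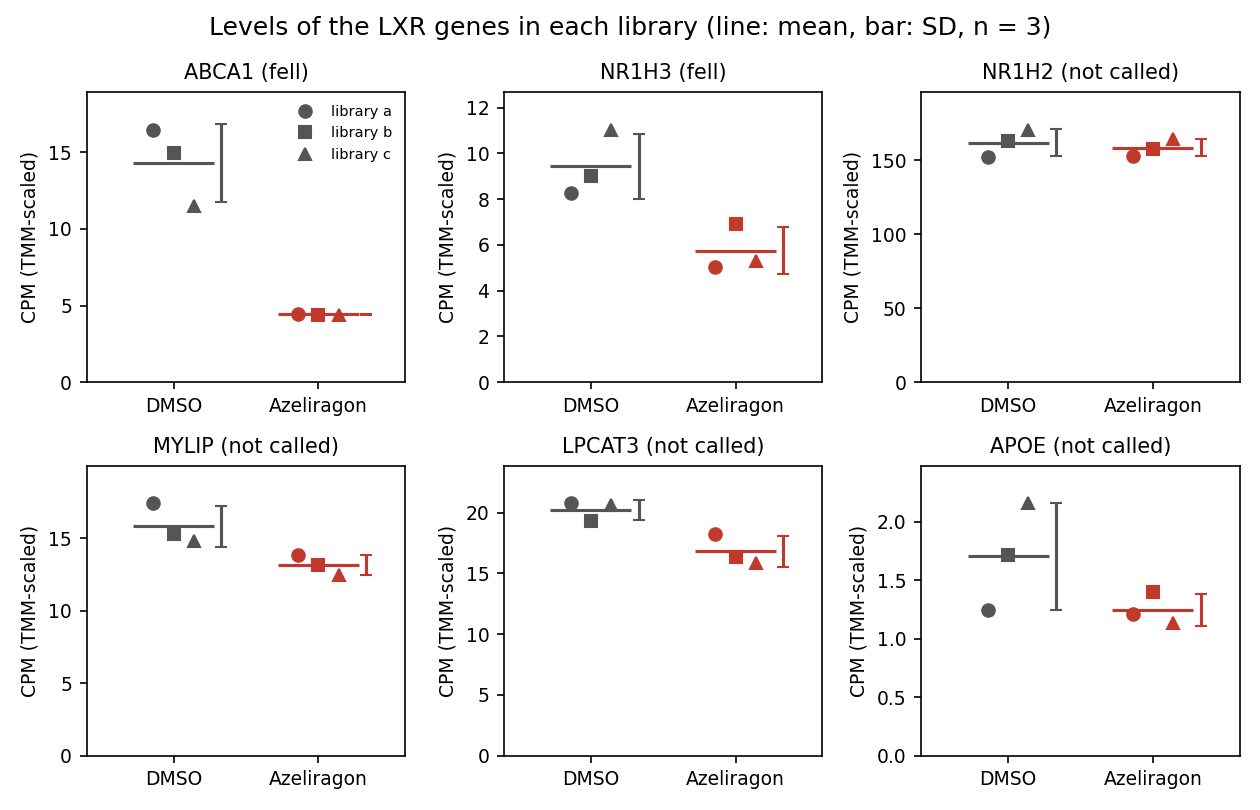
TMM-scaled CPM of the 6 tested genes in each library (vertical axis, linear and starting at 0), with DMSO in grey and Azeliragon in red, the mean as a line and the SD of 3 libraries as a bar. The 3 treated ABCA1 values, 4.40 to 4.47 CPM, lie together far below the DMSO values of 11.5 to 16.5 CPM, and the NR1H2 and APOE groups overlap.

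NR1H3 encodes LXR-alpha, the receptor that is abundant in liver, fat and macrophages and whose gene is itself an LXR target in human cells. It lies at chr11:47248300-47269032 on the plus strand (GRCh38). Its level was 8.28, 9.01 and 11.0 CPM in DMSO a, b and c and 5.05, 6.92 and 5.28 CPM in Azeliragon a, b and c. The highest treated library, Azeliragon b, stayed below the lowest DMSO library, so the groups did not overlap. The mean went from 9.44 ± 1.42 to 5.75 ± 1.02 CPM (SD, n = 3 each), which edgeR estimated as 1.64-fold lower, with a log2 fold change of -0.71, an SE of 0.15 and an adjusted p of 0.0149. This call did not hold for every choice of libraries. With DMSO b left out the edgeR adjusted p was 0.0517 and the log2 fold change -0.75. With Azeliragon a left out they were 0.106 and -0.63, and with Azeliragon c left out 0.0846 and -0.66. Without DMSO a the log2 fold change was -0.80 and the adjusted p 1.81e-04. On the opposite strand ACP2, a lysosomal phosphatase gene, shares 189 exon bases with NR1H3, 4.17% of its 4533. ACP2 stood at 50.6 ± 4.1 CPM in DMSO and 41.9 ± 1.5 CPM with Azeliragon, with an edgeR adjusted p of 0.0676. Without DMSO a it was called, with an adjusted p of 6.53e-04 and a log2 fold change of -0.34 in edgeR, and its part in the NR1H3 count was not tested.

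NR1H2 encodes LXR-beta, the receptor that is present in most tissues (chr19:50329653-50382982, plus strand). Its level was 152, 163 and 170 CPM in DMSO and 153, 158 and 164 CPM with Azeliragon. The groups overlapped over most of their range. The log2 fold change was -0.03, with a 95% interval of -0.17 to 0.11 and an adjusted p of 0.835 in edgeR's test, and without DMSO a it was -0.07 with an adjusted p of 0.326. The sign of so small a value was not stable, since it was 0.01 without DMSO c and 0.04 after removal of the trend on transcript length and GC content. The interval covers values on both sides of 0, and a missed threshold does not show that the gene was unaffected.

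Per kilobase of exon, NR1H2 was the most abundant of the 7 transcripts in both conditions. It stood at 43.1 CPM per kb in DMSO and 42.2 with Azeliragon, while NR1H3 stood at 2.08 and 1.27. NR1H2 was 18.7 to 22.2 times as abundant as NR1H3 per kilobase in the DMSO libraries and 27.5 to 37.5 times in the Azeliragon libraries. Of the LXR transcripts counted this way, NR1H3 made up 4.32%, 4.38% and 5.09% in DMSO a, b and c and 2.66%, 3.51% and 2.59% in Azeliragon a, b and c. The receptor that fell was thus the minor one at the RNA level in every library.

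In the order of levels per kilobase, MYLIP followed NR1H2 with 5.21 CPM per kb in DMSO, then LPCAT3 with 4.28, NR1H3 with 2.08, ABCA1 with 1.26 and APOE with 0.777. The library ranges of neighbours in this order did not overlap in either condition. ABCA1, for example, ranged from 1.01 to 1.45 CPM per kb and APOE from 0.566 to 0.984. With Azeliragon the first 4 places were the same, at 42.2, 4.32, 3.56 and 1.27 CPM per kb. The last places were exchanged, with APOE at 0.517 to 0.638 and ABCA1 at 0.388 to 0.394 CPM per kb. The place of LPCAT3 depends on how reads in its shared exon bases were counted, as described with that gene.

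No partner or coregulator of LXR passed the test. This list had 18 genes, of which 17 were tested. The retinoid X receptor genes RXRA and RXRB, whose products pair with LXR on DNA, had log2 fold changes of -0.12 and -0.10, with edgeR adjusted p-values of 0.318 and 0.441, and RXRG did not pass the filter. RXRA levels were 78.0, 71.0 and 75.0 CPM in DMSO and 69.4, 68.4 and 67.8 CPM with Azeliragon, and the groups did not overlap. Beside the 0 calls of edgeR, 3 genes were higher and 1 was lower at an unadjusted p under 0.05, and DESeq2 and limma-voom called 0. The list's median log2 fold change was 0.11. The count was 7, all higher, without DMSO a, 1 without DMSO c, and 5 with no filter on low counts.

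ABCA1 was the member with the largest difference. The gene occupies chr9:104781002-104928237 on the minus strand (GRCh38), with 51 exon blocks of 11350 bases in all, and none of these bases is shared with another annotated gene. Its counts were 743, 644 and 497 in DMSO a, b and c and 192, 192 and 183 in Azeliragon a, b and c. As CPM these are 16.5, 14.9 and 11.5 against 4.47, 4.40 and 4.41. The lowest DMSO library was far above the highest treated one. The mean went from 14.3 ± 2.53 to 4.43 ± 0.0346 CPM (SD, n = 3 each), and edgeR gave a 3.23-fold lower level, with a log2 fold change of -1.69, an SE of 0.14, a 95% interval of -1.99 to -1.39 and an adjusted p of 3.41e-05. The spread was also unequal, as the coefficient of variation over libraries was 17.7% in DMSO and 0.782% with Azeliragon. ABCA1 had the lowest log2 fold change of the 10187 genes whose mean level reached 5 CPM.

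The fall of ABCA1 did not rest on a single library or setting. It passed edgeR's threshold, or that of DESeq2 or limma-voom, in 14 of 14 alternatives, with log2 fold changes from -1.83 without DMSO c to -1.58 without DMSO a and adjusted p-values no higher than 0.00132. Of all 2451 ABCA1 reads, 23.1% came from the treated libraries, and the library sizes alone would give 49.3%. The exact 95% binomial interval of this share, 21.5% to 24.9%, covers counting error only.

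The ABCA1 promoter is printed because it carries both classes of element for which this gene is known, an LXR site and an E-box. The 300 bases run from 250 before the transcription start to 50 from it on, at chr9:104928106-104928405 on the minus strand (RefSeq, GRCh38.p14), and capitals mark the 2 matches.
ABCA1 promoter: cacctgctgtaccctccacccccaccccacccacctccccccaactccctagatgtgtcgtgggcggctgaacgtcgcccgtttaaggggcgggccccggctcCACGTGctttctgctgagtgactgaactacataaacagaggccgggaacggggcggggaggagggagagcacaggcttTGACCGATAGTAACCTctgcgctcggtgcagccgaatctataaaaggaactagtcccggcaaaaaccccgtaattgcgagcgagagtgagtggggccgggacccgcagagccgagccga

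The second run of capitals is a DR4 match, the arrangement that LXR and its partner bind, which is a pair of AGGTCA motifs with 4 bases between them. It spans bases -69 to -54 from the start and reads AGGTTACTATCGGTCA on the opposite strand, with 2 mismatches to the 12 bases of the pair. The first run is the E-box CACGTG. Both strands of 35116 RefSeq promoters of this length were searched, with up to 2 mismatches for the DR4. A DR4 match was present in 2.34% of them, the E-box in 7.26% and both in 0.194%. Promoters of 6 of the 7 genes were in the table, with ABCG1 missing, and among these only ABCA1 held either element. Of the other LXR targets, 10 genes had a promoter in the table, and among these APOC2 held a DR4 match and PLTP an E-box. These are matches of letters in a short window, and binding was not measured.

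ABCA1 is also the textbook target of miR-33a and miR-33b, which are made from introns of SREBF2 and SREBF1. Their mature sequences share a seed, given in capitals.
hsa-miR-33a-5p: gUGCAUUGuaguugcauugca
hsa-miR-33b-5p: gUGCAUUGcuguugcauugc
The 3′UTR of ABCA1 in GENCODE has 3313 bases and holds 4 copies of the matching site CAATGCA. The windows that hold them are shown with the sites in capitals, where the first 2 sites overlap.
ABCA1 3′UTR bases 131 to 160: tattCAATGCAATGCAattCAATGCAatga
ABCA1 3′UTR bases 1456 to 1485: tttttttttttaattgcaaCAATGCAaaag
Of 793 tested genes with a 3′UTR within 10% of that length, 16.3% had at least 1 site, and 2, ABCA1 included, had at least 4. The 3′UTRs of the other 6 genes of the set held 0 sites. Mature miRNAs are not captured in polyadenylated RNA, and the gene entries MIR33A and MIR33B held 4 and 11 reads over 6 libraries.

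The host genes of these miRNAs moved in opposite directions, as SREBF1 fell, with values given among the other LXR targets. SREBF2, the master regulator of cholesterol synthesis and a member of the list of 10 regulators of ABCA1, was at 384, 334 and 339 CPM in DMSO and 433, 455 and 464 CPM with Azeliragon. It rose 1.28-fold, with an adjusted p of 0.00888 in edgeR, although this call was lost without DMSO b, Azeliragon b or Azeliragon c (adjusted p up to 0.0789). It was the only called gene of that list, whose median log2 fold change was 0.02, and 3 of its genes were called as higher and 2 as lower without DMSO a and 0 without DMSO b, Azeliragon b or Azeliragon c. With library totals, no filter, the stricter filter or DESeq2, 1 gene was called as higher and 1 as lower. PPARG, a receptor that can induce NR1H3, was at 55.3 ± 0.529 and 47.5 ± 0.815 CPM, with an edgeR adjusted p of 0.0746, and 0.0173 without DMSO a. FOSL2, the most abundant gene of the list without a call, had an adjusted p of 0.645 in the same test, and was called without DMSO a, with a log2 fold change of 0.25 and an edgeR adjusted p of 0.00105.

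The genes whose profiles over the 6 libraries lay closest to that of ABCA1, among tested genes whose mean level reached 5 CPM, were LAPTM5, ANGPTL4, LFNG, SLC43A2 and COL7A1. Likeness was the root-mean-square difference of log2 CPM after each gene was centred on its DMSO mean, and it ranged from 0.17 for LAPTM5 to 0.30 for COL7A1. All 5 fell, with log2 fold changes of -1.65, -1.58, -1.50, -1.31 and -1.30. They were picked for resembling ABCA1, so their falls are a description. The difference between NR1H3 and ABCA1 on the same measure was 0.74.

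**Figure D2:**
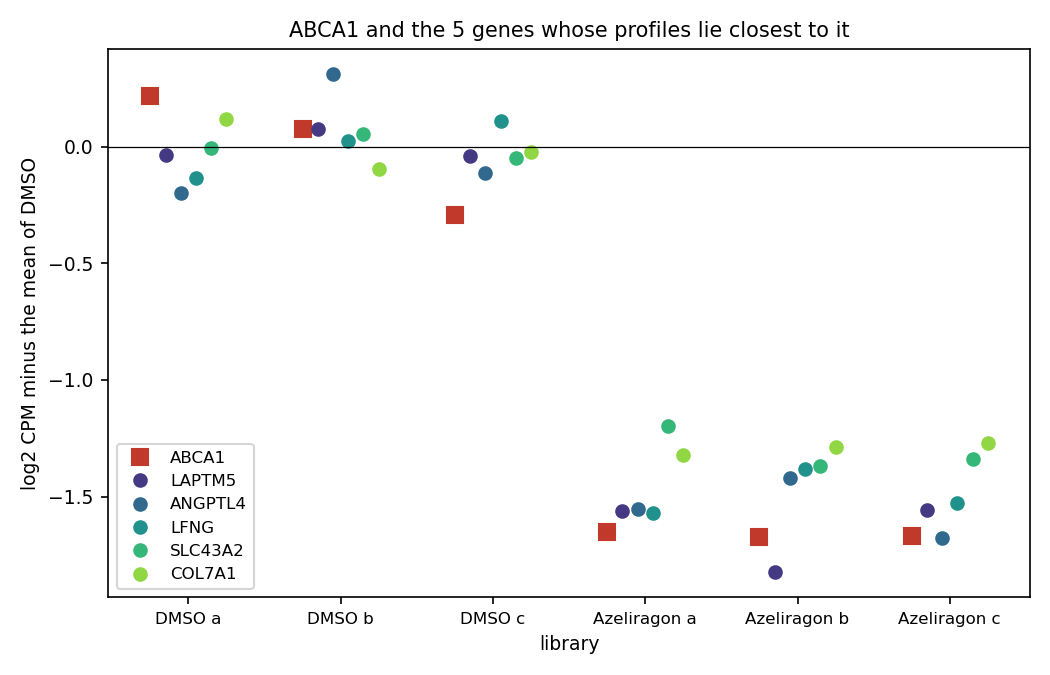
log2 CPM minus the gene's DMSO mean (vertical axis) in each of the 6 libraries, for ABCA1 (squares) and the 5 genes with the closest profiles (circles). ABCA1 has the widest scatter of these genes between DMSO a and DMSO c, and all 6 genes lie below -1.0 in every Azeliragon library.

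ABCG1 was not detected. It lies at chr21:42199689-42297244 on the plus strand and had 0 counts in each of the 6 libraries, which at this depth allows a level of up to 3 counts, or 0.0665 to 0.0723 CPM. No fold change can be given. The genes beside it were at 0 as well. From UMODL1 to RSPH1 (chr21:42062959-42496354), 8 protein-coding genes in a row, or 11 genes of all types, had no read, and they include TFF1, TFF2 and TFF3. The neighbours on either side, ZBTB21 and SLC37A1, had 2068 and 123 reads in all. Of 19876 protein-coding genes, 20.1% had no read, and 58 runs of at least 8 such neighbours were found in the genome. Whether the region is silent in this line, lost from it or missed in counting was not tested.

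**Figure D3:**
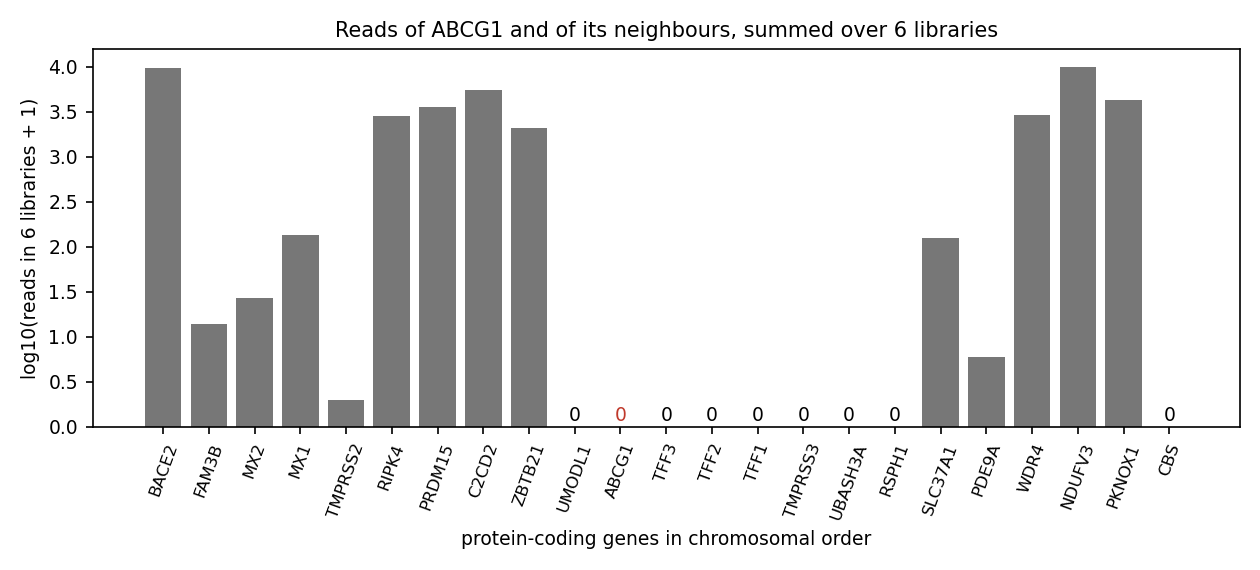
Reads summed over the 6 libraries, as log10(reads + 1) (vertical axis), for ABCG1 (red 0) and protein-coding neighbours in chromosomal order. The run of 8 genes at 0 from UMODL1 to RSPH1 has ZBTB21 with 2068 reads on one side and SLC37A1 with 123 on the other.

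The relatives of ABCA1 and ABCG1 showed no called change. Of 15 other ABCA and ABCG transporter genes, 6 were tested and 0 passed edgeR's threshold, 0 with DESeq2 and 0 with limma-voom. At an unadjusted p under 0.05, 2 were lower and 0 higher, and 2 genes were called as higher without DMSO a. ABCA2, a transporter of late endosomes and lysosomes and the most abundant of them, was at 134, 97.7 and 91.7 CPM in DMSO and 108, 116 and 121 CPM with Azeliragon. These groups overlapped, with an edgeR adjusted p of 0.719. Without DMSO a, its highest library, ABCA2 was called, with a log2 fold change of 0.28 and an adjusted p of 0.00104 in edgeR. ABCA7, the closest relative of ABCA1, was at 13.2 ± 0.912 and 11.0 ± 0.557 CPM, a log2 fold change of -0.27 with an adjusted p of 0.143 in edgeR. The median log2 fold change of the 6 was -0.07.

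MYLIP, also called IDOL, is the ubiquitin ligase through which LXR lowers lipoprotein uptake (chr6:16129125-16148248, plus strand). Its level was 17.4, 15.2 and 14.8 CPM in DMSO and 13.8, 13.1 and 12.4 CPM with Azeliragon. Every treated library was below every DMSO library. The mean was 15.8 ± 1.40 and 13.1 ± 0.689 CPM, a log2 fold change of -0.27 with an SE of 0.10. The unadjusted p was 0.0181 in edgeR and the adjusted p 0.142, and MYLIP was called in 0 of 14 alternatives, with adjusted p-values from 0.111 without DMSO c to 0.408 without Azeliragon c, and 0.169 without DMSO a.

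Substrates of MYLIP and receptors for APOE were examined as 1 list of 9 genes, of which 7 were tested. In all 2 rose, LRP8 among them, and none fell. LRP8, a receptor for APOE and reelin, was at 97.4, 81.1 and 76.4 CPM in DMSO and 105, 108 and 108 CPM with Azeliragon. The groups did not overlap, and the level was 1.26-fold higher with an adjusted p of 0.0387 in edgeR. This call rested on the scaling and on the libraries used. It was lost with library totals and without DMSO b, DMSO c or any 1 of the Azeliragon libraries, with adjusted p-values up to 0.196. Without DMSO a 3 genes of the list were called as higher and 1 as lower. With no filter and after trend removal 2 were higher and 2 lower, with Azeliragon a left out 1 was lower and 0 higher, and without any 1 of the other libraries 0 were called. VLDLR, also a MYLIP substrate, was at 13.1 ± 0.731 and 10.0 ± 1.82 CPM, with a log2 fold change of -0.38 and an edgeR adjusted p of 0.104, and 0.0261 without DMSO a. The abundant proteoglycan gene SDC1 had a log2 fold change of 0.02 with an adjusted p of 0.910 in edgeR, and the list's median was -0.07.

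LPCAT3, the acyltransferase that raises arachidonate in membrane phospholipids, lies at chr12:6976186-7018510 on the minus strand. Its level was 20.8, 19.3 and 20.6 CPM in DMSO and 18.2, 16.4 and 15.8 CPM with Azeliragon. The groups did not overlap, and the means were 20.2 ± 0.809 and 16.8 ± 1.27 CPM. The log2 fold change was -0.27 with an SE of 0.09, an unadjusted p of 0.0122 and an adjusted p of 0.114 in edgeR, and 0 of 14 alternatives called it, with adjusted p-values from 0.0622 without DMSO a to 0.379 without Azeliragon c. The count itself is uncertain. EMG1, a ribosome assembly gene on the opposite strand, shares 3100 of the 4725 exon bases of LPCAT3, or 65.6%, and the labels do not say how reads in them were counted. EMG1 stood at 62.8 ± 8.6 and 65.1 ± 1.35 CPM, with an edgeR adjusted p of 0.801.

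Of 10 related LPCAT, MBOAT and AGPAT acyltransferase genes, all were tested, LPCAT2 fell and none rose. LPCAT2, an enzyme that also makes platelet-activating factor, was at 35.4, 29.8 and 31.7 CPM in DMSO and 15.6, 15.5 and 16.4 CPM with Azeliragon. It was 2.04-fold lower, with a log2 fold change of -1.03 and an adjusted p of 3.95e-05 in edgeR, and was called in 14 of 14 alternatives. MBOAT7, the most abundant of the others, had a log2 fold change of 0.04 with an edgeR adjusted p of 0.778. The list's median was -0.03.

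APOE encodes the lipoprotein ligand that accepts cholesterol exported by ABCA1 (chr19:44905754-44909393, plus strand). Its counts were low, at 56, 74 and 93 in DMSO and 52, 61 and 47 with Azeliragon. As CPM these were 1.24, 1.71 and 2.16 against 1.21, 1.40 and 1.13. DMSO a lay within the treated range, so the groups overlapped. The means of 1.70 ± 0.458 and 1.25 ± 0.137 CPM gave a log2 fold change of -0.45 with an SE of 0.26, a 95% interval of -1.02 to 0.12 and an adjusted p of 0.371 in edgeR. The log2 fold change was -0.63 without DMSO a, with an adjusted p of 0.0936, and -0.24 without DMSO c, with an adjusted p of 0.736. Of its 383 reads, 41.8% were from treated libraries, and counting error alone gives an exact 95% binomial interval of 36.8% to 46.9%.

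Other LXR targets did not move as a block. The list had 17 genes, of which 9 were tested, and 1 rose, 2 fell and 6 were not called, with a median log2 fold change of 0.06. SREBF1, which LXR induces directly, was at 440, 415 and 425 CPM in DMSO and 274, 288 and 294 CPM with Azeliragon. The groups were far apart, and the fall was 1.49-fold with a log2 fold change of -0.58 and an adjusted p of 1.31e-04 in edgeR. It was called in 14 of 14 alternatives. RAI1, on the opposite strand, shares 6.92% of the exon bases of SREBF1.

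APOC1 rose, and it lies 4853 bases beyond the end of APOE in the same gene cluster. It was at 11.1, 13.1 and 17.5 CPM in DMSO and 20.8, 20.5 and 20.9 CPM with Azeliragon, with no overlap. The rise was 1.49-fold with an adjusted p of 0.0262 in edgeR. It was lost without DMSO b or any 1 of the Azeliragon libraries, where the adjusted p reached 0.139. A transcript of unclear coding status, AC011481.3, shares 43.2% of the exon bases of APOC1 and had 24 reads in all. APOC1 and APOE thus had estimates of opposite sign, 0.58 and -0.45, and the difference between them was not tested.

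SCD and FASN, lipogenic genes downstream of both LXR and SREBF1, did not pass the test. SCD, the most abundant of the list, was at 1484 ± 139 and 1543 ± 16.0 CPM with an edgeR adjusted p of 0.702. FASN had a log2 fold change of 0.29 with an adjusted p of 0.105 in edgeR, and the groups overlapped. Without DMSO a both were called as higher, SCD with a log2 fold change of 0.14 and FASN with 0.43, and edgeR adjusted p-values of 0.0191 and 3.32e-07. The list then held 3 genes called as higher and 2 as lower. Without DMSO c there was 1 of each, without any 1 of the other libraries 1 was lower and 0 higher, and the replicate block left 2 calls.

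**Figure D4:**
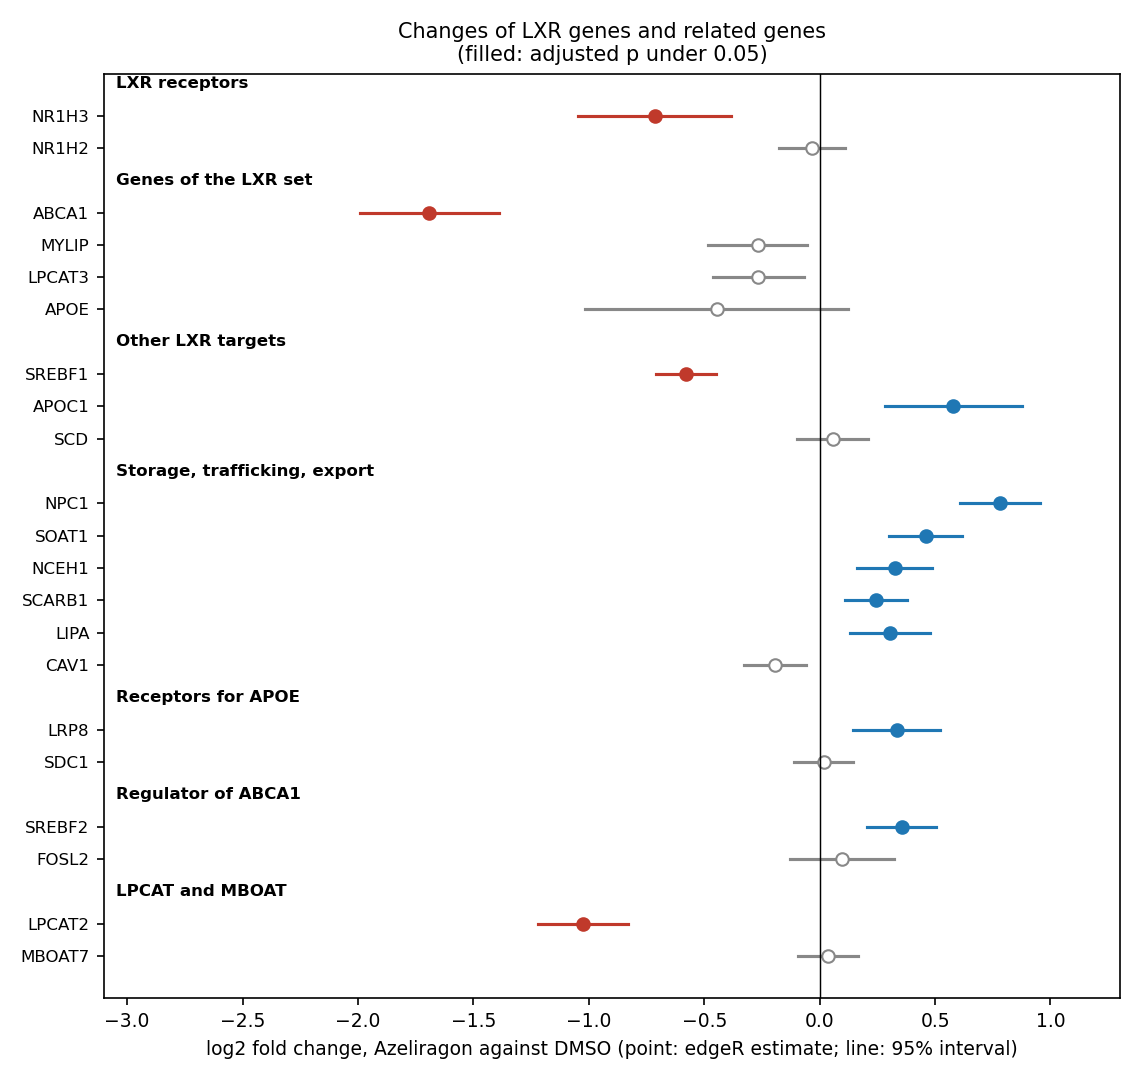
log2 fold changes of Azeliragon against DMSO (horizontal axis), as edgeR estimates with 95% intervals, for the tested genes of the set and for some genes of 5 related lists. Filled points passed an adjusted p of 0.05 and open points did not. ABCA1 at -1.69 is farthest from 0 of the genes drawn, and the called genes for storage, trafficking and export, led by NPC1 at 0.78, lie on the other side of 0, with CAV1 open at -0.19.

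Enzymes that make or clear LXR ligands mostly did not pass the filter on low counts. In this list 4 of 10 genes were tested, and CH25H, which makes a potent oxysterol, was among those left out. CYP27A1, another oxysterol-producing enzyme, had a log2 fold change of -0.10 with an edgeR adjusted p of 0.652. In all 2 genes rose and none fell. EBP, a sterol isomerase of cholesterol synthesis, was at 94.3, 108 and 122 CPM in DMSO and 141, 151 and 141 CPM with Azeliragon. It rose 1.34-fold with an edgeR adjusted p of 0.0126, a call lost without DMSO b or any 1 of the Azeliragon libraries. The list's median was 0.16, and 2 of its genes were called as higher without DMSO c and 1 without any 1 of the other libraries but DMSO a. Without DMSO a, 2 were higher and 1 was lower. The lower one, HSD3B7, an enzyme of bile acid synthesis, then had a log2 fold change of -0.40 with an edgeR adjusted p of 0.00174, against -0.29 and 0.135 with all libraries. Its count is uncertain, as AC135048.4 on the opposite strand shares 64.6% of its exon bases.

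Genes of cholesterol synthesis, which respond to SREBF2, stood on the other side from ABCA1. Of 20 tested, 18 rose and none fell, with a median log2 fold change of 0.67. HMGCS1, an early enzyme of the pathway, went from 72.6 ± 1.91 to 147 ± 3.07 CPM, a 2.02-fold rise with an edgeR adjusted p of 4.22e-06. With a library left out, 15 to 19 genes of the list were called, all higher except 1 that was lower without DMSO a.

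Among 17 genes of cholesterol export, acceptors and storage, 15 were tested, 5 rose and 0 fell, with a median log2 fold change of 0.14. NPC1, which carries cholesterol out of lysosomes, was at 77.9, 66.5 and 66.5 CPM in DMSO and 129, 116 and 117 CPM with Azeliragon. It rose 1.72-fold with an adjusted p of 1.22e-04 in edgeR. SOAT1, which esterifies cholesterol for storage, rose 1.38-fold with an edgeR adjusted p of 0.00283, and both genes were called in 14 of 14 alternatives. NCEH1 and LIPA, which break cholesteryl esters down, rose 1.25-fold and 1.23-fold, and SCARB1, a receptor for high-density lipoprotein, 1.18-fold, with edgeR adjusted p-values of 0.0218, 0.0426 and 0.0351. Of 14 alternatives, 9 called NCEH1 and 8 called SCARB1, with edgeR adjusted p-values up to 0.145 and 0.194. Both calls were lost without any 1 library other than DMSO a, and that of SCARB1 also with the replicate block. CAV1, the most abundant of the others, was at 659 ± 21.5 and 577 ± 29.7 CPM with an adjusted p of 0.0957 in edgeR, and without DMSO a it was called as lower, with an adjusted p of 0.0129. For the 0 genes that fell, 3 were lower at an unadjusted p under 0.05, and DESeq2 and limma-voom called 0. Without DMSO a 7 genes were called as higher and 1, CAV1, as lower, and without any 1 of the other libraries 2 were higher and 0 lower.

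The fall of NR1H3 can be set beside other nuclear receptor genes. Of 46, 28 were tested, 1 rose and 6 fell (THRA, RARG, VDR, NR2F6, NR4A2 and NR4A3), and the median log2 fold change was -0.08. Over all tested genes edgeR called 2.75% as higher and 3.53% as lower. The list repeats the RXR and PPAR genes of lists described above. NR4A3, an immediate early receptor, went from 1.31 ± 0.292 to 0.283 ± 0.147 CPM, 4.60-fold lower with an edgeR adjusted p of 0.00750. This rests on few reads, as a single count was 0.0229 to 0.0241 CPM in the Azeliragon libraries. NR4A3 was called in all 13 alternatives that tested it, with log2 fold changes from -2.64 to -1.88. NR2F6 was 1.36-fold and RARG 1.32-fold lower, with adjusted p-values of 0.0136 and 0.0182 in edgeR, and NR2F2 rose 1.24-fold with an adjusted p of 0.0177. THRA shares 3.78% of its exon bases with NR1D1 on the opposite strand. These counts moved strongly with the libraries, as 2 receptor genes were called as higher and 8 as lower without DMSO a, and 2 and 5 without DMSO c. No receptor gene was called as higher without any 1 of the other libraries, where 3 were lower without Azeliragon b, 2 without DMSO b and 1 when Azeliragon a or c was left out.

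ABCA1, NR1H3 and APOE are also abundant in macrophages, and ABCA1 in fibroblasts, so markers of both were read. Of 12 macrophage markers 3 were tested and CSF1R fell, from 3.83 ± 0.453 to 1.47 ± 0.360 CPM, with an edgeR adjusted p of 0.00185. MARCO, AIF1 and C1QA were at 0, and the markers summed to 5.56 to 6.44 CPM in DMSO and 2.84 to 3.09 CPM with Azeliragon. Of 8 fibroblast markers 4 were tested and 3 fell (COL1A1, COL1A2 and PDGFRB), PDGFRA and FAP were at 0, and the sum was 19.6 to 22.3 CPM in DMSO and 11.3 to 13.3 CPM with Azeliragon. CSF1R made up most of the macrophage sum in DMSO. The other macrophage markers tested, CD14 and ADGRE1, were not called, with edgeR adjusted p-values of 0.247 and 0.750. LUM, the other fibroblast marker tested, had an estimate above 0 and was not called, with an edgeR adjusted p of 0.747. The other 9 macrophage and 4 fibroblast markers did not pass the filter on low counts. All libraries came from 1 cell line, so both sums are levels of these genes in its cultures. They are not read as a share of other cells. Both sums moved in the same direction as ABCA1 and NR1H3, and a link between them was not tested.

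**Figure D5:**
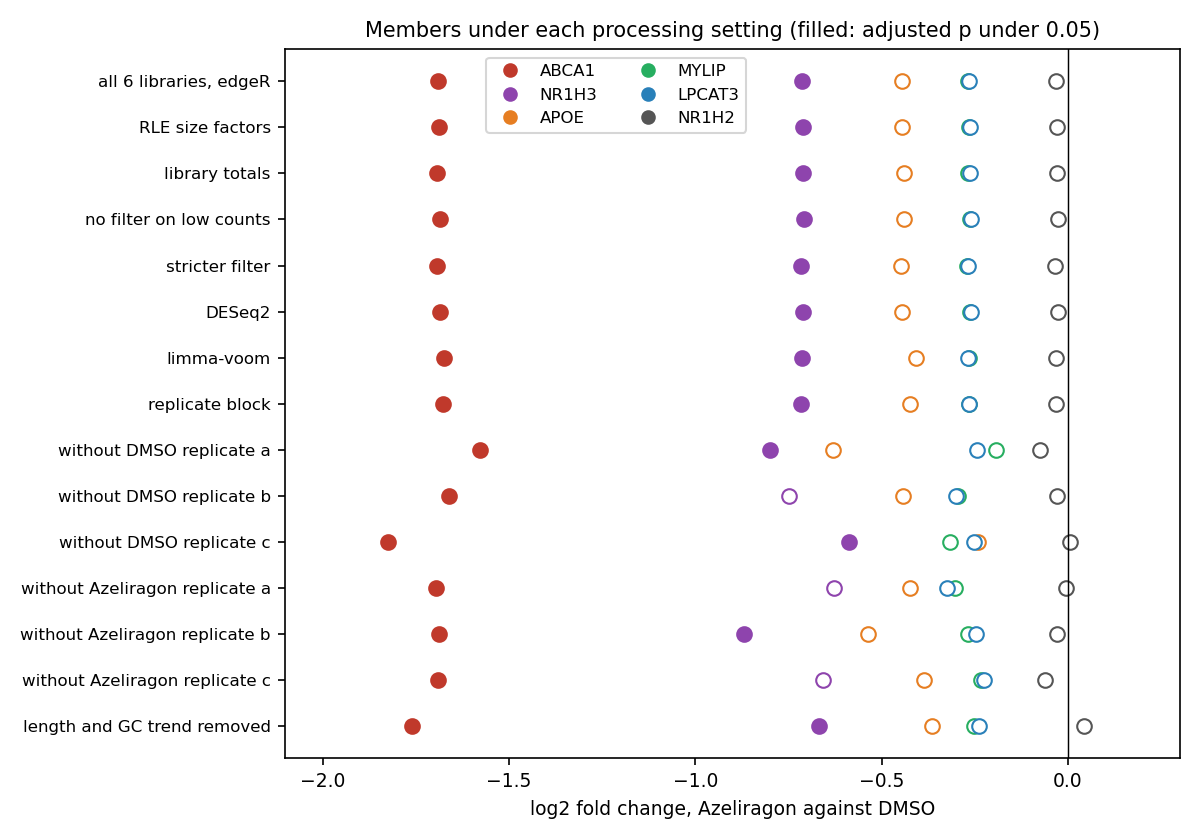
log2 fold change of each tested gene of the set (horizontal axis) with all 6 libraries and under 14 alternatives (rows). Filled circles passed an adjusted p of 0.05. ABCA1 is filled in every row, NR1H3 is open in the 3 rows that leave out DMSO b, Azeliragon a and Azeliragon c, and the other 4 genes are open throughout.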

How the data were processed

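The values in the authors' deposited table are raw counts of reads for each gene in 6 libraries. The submitters' processing notes list the build GRCh38, featureCounts 1.5.0-p3, STAR 2.6.1d and limma, with no step assigned to any. No source used here states the strand setting, the annotation or the handling of multiply matching reads, so genes that overlap on opposite strands may share reads.

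Of 58735 names in the table, 58722 were found in GENCODE release 29, which gave coordinates, exon lengths and 3′UTRs. A further 2 entries had names turned into numbers, held 0 counts and were left out. A total of 1741 entries shared a name with another, none of them a gene of the set. No library repeated another, as the chi-square per degree of freedom between libraries of a group was 4.60 or more. A single count corresponded to 0.0222 to 0.0241 CPM.

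Genes kept by filterByExpr of edgeR 4.0.16 were scaled by TMM and tested with glmQLFit and glmQLFTest in a model that holds treatment alone. Standard errors and intervals are on the log2 scale. The tests were checked on simulated counts. Alternatives were library totals, RLE size factors, no filter, a mean count of 50 with 1 CPM in 3 libraries, limma-voom (limma 3.58.1), DESeq2 1.42.0, a block for the replicate letter, the omission of single libraries, and removal of each library's trend on length and GC content. R 4.3.3, Python 3.11.15 and matplotlib 3.10.9 were used.

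The members, the related gene lists and the tests were chosen with earlier results of these data known. Named genes were the members and, from each list, up to 4 called genes by smallest p and the most abundant tested gene without a call. The rule added the 5 genes with profiles closest to ABCA1. Further list genes that are named, such as RXRA, FASN, ABCA7, VLDLR, PPARG, CYP27A1 and LIPA, were chosen after their values were seen. Some genes of the lists are counted but not reported here by name. Promoters and miRNAs came from RefSeq tables (GRCh38.p14).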

Additional observations from a re-analysis of the deposited data

How the results depend on the processing

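The number of the 7 genes called was 2 in every alternative with all 6 libraries and 1 to 2 with a library left out. It was 1 where NR1H3 was lost, on leaving out DMSO b or either Azeliragon a or c. The log2 fold change of NR1H2 changed sign, to 0.0437 with the length and GC trend removed and, with a library left out, over a range of -0.0747 to 0.00669, and no other tested gene of the set changed sign in any of the 14 alternatives. Over all genes, 1009 were called, 1685 with no filter on low counts and 445 to 3916 with a library left out. The count was 3916 without DMSO a, 473 without DMSO b, 819 without DMSO c, and with Azeliragon a, b or c left out it was 445, 500 or 448. The split of calls was 442 higher and 567 lower, against 898 and 787 with no filter and 813 and 678 with the trend removed, and the median log2 fold change over all genes stayed within 0.1 of 0 in each setting. The labels do not say that the letters pair cultures, so the letter was left out of the main model. Libraries with the same letter correlated at 0.027, 0.022 and -0.044 in their deviations from the group means. With 3 libraries per group these values cannot show whether cultures were paired. With the replicate block 908 genes and 2 genes of the set were called. Of 196 counts of called genes over the related lists and settings, 149 were within 1.5 times the count with all libraries and 47 were not, and the cause was not tested. APOE was counted at only 47 to 93 per library, and depth allows no statement on ABCG1 below 3 counts.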
